A study of Mus musculus with 6 samples.

Results

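Meis1, Meis2, Meis3, Pbx2, Pbx3 and Prdm16 are 6 of the 21887 protein-coding genes of the RefSeq mouse table, and they were taken by name. Each was described through the H3K27ac peaks that touched its annotated gene or the 20 kb on either side, called its window here. H3K27ac, acetylation of histone H3 at lysine 27, marks active promoters and enhancers. It was mapped by CUT&RUN, in which an antibody-tethered nuclease cuts out the marked chromatin, in left ventricular nuclei that had been sorted with an antibody against PCM-1, which labels cardiomyocyte nuclei. The mice were of the FVB strain and 8 to 12 weeks old. There were 3 wild-type libraries (WT) and 3 libraries named HOM, from double-knockout mice whose Nppa and Nppb were removed by CRISPR, genes that encode the natriuretic peptides ANP and BNP. No drug or surgery is named for either genotype. Values are given below in the order of replicates 1, 2 and 3. The breeding protocol also names Myh6-MerCreMer, nTnG and Sun1/sfGFP mice on FVB/N, and the labels do not say that these libraries carried any of those alleles. The labels do not say whether each library came from its own mouse or how many hearts entered it. The p-values below therefore measure spread between libraries that may be technical, and in such bulk material fewer marked nuclei and less acetylation per nucleus cannot be told apart.

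MEIS and PBX proteins are homeodomain transcription factors of the TALE class. They bind DNA together as MEIS-PBX pairs, and PBX proteins also pair with HOX proteins. In the mouse heart, Meis1 is known for its part in the withdrawal of cardiomyocytes from the cell cycle after birth. PRDM16 is a zinc finger regulator best known for the identity of brown fat, and it also acts in the compact myocardium of the left ventricle in mice. In humans, PRDM16 has been linked to cardiomyopathy.

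The promoters are shown first because they surround the starts that RefSeq lists for 5 of the genes, and because acetylation at them differed widely. At Meis1, Meis2, Prdm16 and Meis3 the listed start lies inside the annotated gene. Distances along a gene are given below from its annotated 5′ end, which is also what its start means there. Each sequence runs from 250 bases before to 50 after the start given by RefSeq for GRCm38.p6, 5′ to 3′ on the gene's strand, with CG pairs in capitals. The windows are chr11:19018920-19019219 (minus strand) for Meis1, chr2:116064570-116064869 (minus) for Meis2, chr4:154636824-154637123 (minus) for Prdm16, chr17:34592009-34592308 (plus) for Pbx2 and chr7:16175145-16175444 (plus) for Meis3. The last 2 are shown as the promoters of genes with few or no peaks.
Meis1: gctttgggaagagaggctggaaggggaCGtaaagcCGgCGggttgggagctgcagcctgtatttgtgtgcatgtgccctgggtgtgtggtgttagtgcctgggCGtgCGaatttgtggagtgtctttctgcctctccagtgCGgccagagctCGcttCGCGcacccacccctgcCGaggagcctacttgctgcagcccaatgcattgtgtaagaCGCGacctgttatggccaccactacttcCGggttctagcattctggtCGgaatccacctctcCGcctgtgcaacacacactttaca
Meis2: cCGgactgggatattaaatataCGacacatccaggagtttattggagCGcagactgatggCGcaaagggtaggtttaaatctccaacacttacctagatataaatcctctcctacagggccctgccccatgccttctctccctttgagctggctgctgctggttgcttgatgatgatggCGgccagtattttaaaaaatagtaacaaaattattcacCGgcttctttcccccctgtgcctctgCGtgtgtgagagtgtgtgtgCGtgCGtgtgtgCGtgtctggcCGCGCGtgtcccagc
Prdm16: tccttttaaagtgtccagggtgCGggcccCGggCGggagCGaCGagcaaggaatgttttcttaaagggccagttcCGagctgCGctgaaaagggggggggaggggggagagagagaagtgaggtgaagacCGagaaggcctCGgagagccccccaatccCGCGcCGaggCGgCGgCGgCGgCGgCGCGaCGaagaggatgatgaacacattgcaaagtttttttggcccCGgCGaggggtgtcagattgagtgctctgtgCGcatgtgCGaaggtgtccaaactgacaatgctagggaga
Pbx2: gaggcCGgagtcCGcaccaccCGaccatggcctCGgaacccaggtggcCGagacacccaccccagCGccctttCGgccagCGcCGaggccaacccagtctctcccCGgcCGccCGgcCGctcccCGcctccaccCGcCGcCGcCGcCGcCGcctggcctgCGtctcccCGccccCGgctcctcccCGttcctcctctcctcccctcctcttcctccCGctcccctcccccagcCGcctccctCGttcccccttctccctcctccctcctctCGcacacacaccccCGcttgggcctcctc
Meis3: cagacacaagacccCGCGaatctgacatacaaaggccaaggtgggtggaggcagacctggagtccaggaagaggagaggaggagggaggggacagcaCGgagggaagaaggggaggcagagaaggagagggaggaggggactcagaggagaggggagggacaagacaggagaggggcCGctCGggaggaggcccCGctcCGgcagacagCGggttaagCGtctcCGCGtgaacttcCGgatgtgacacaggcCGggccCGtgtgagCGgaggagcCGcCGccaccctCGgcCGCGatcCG

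The Meis1 promoter was covered by peaks over 137, 300 and 300 bases in the WT libraries, and over 159, 0 and 0 bases in the HOM libraries. The Meis2 promoter was covered over 0, 278 and 241 bases in the WT libraries and 298, 0 and 0 in the HOM libraries. The Prdm16 promoter was covered over 0, 0 and 236 bases in the WT libraries and 158, 0 and 0 in the HOM libraries. At all of these 3 genes the 300 promoter bases were therefore covered in some libraries of both genotypes and empty in others. Near the annotated 5′ end of Meis2, chr2:116066063-116067361 was covered over 0, 594 and 1299 bp in the WT libraries. In the HOM libraries it was covered over 611, 0 and 0 bp. The Pbx2 promoter was covered over 97 bases in WT replicate 3 and in no other library, and the Meis3 promoter in none. The promoters held 15 CG pairs (Meis1), 13 (Meis2), 24 (Prdm16), 29 (Pbx2) and 21 (Meis3), beside a median of 7 over 32851 mouse promoters of the same length. None of the 5 contained, on either strand, TGACAG (the MEIS core site, in 19.2% of the promoters), TGATTGAT (a PBX site, 0.746%) or TGATTGAC (0.77%), which says only that these letters are not in these windows.

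The 6 peak lists were called library by library and were very unequal, with 21340, 72362 and 106605 peaks in the WT libraries and 48102, 1462 and 15184 in the HOM libraries. HOM replicate 2 stood apart, with a median peak width of 84 bp against 232 to 291 bp in the other 5, so the comparisons of genotypes are also given without it. The interval from Nppb to Nppa held 1, 2 and 4 peaks in the WT libraries and 0 in each HOM library. On the Y chromosome below 80 Mb there were 111 peaks in WT replicate 1, 112 in HOM replicate 1 and 1 to 5 in each other library. All 7 cardiomyocyte markers, among them Myh6, Actn2 and Ryr2, had a peak in their windows in every library but HOM replicate 2, which had 0 of 7. Of 7 endothelial markers, 2, 4 and 5 had one in the WT libraries and 2, 1 and 2 in the HOM libraries. Egfl7 had one in 6 libraries and Pecam1 in 5, and Tie1 and Emcn had none. Of 6 fibroblast markers, 0, 1 and 3 had one in the WT libraries and 1, 0 and 0 in the HOM libraries, none had a peak on the gene itself, and Dcn, Pdgfra and Col1a2 had none at all. Of 6 smooth muscle and pericyte markers, 3, 4 and 5 had one in the WT libraries and 3, 0 and 1 in the HOM libraries, and of 5 immune markers 2, 2 and 2 in the WT libraries and 2, 0 and 2 in the HOM libraries, with Spi1 and Cd68 in 5 libraries and Ptprc and Csf1r in none. On the gene itself, 5, 7 and 7 cardiomyocyte markers had a peak in the WT libraries and 7, 0 and 6 in the HOM libraries. For endothelial markers these counts were 1, 2 and 4, and 1, 0 and 1. For smooth muscle and pericyte markers they were 0, 4 and 4, and 1, 0 and 1, and for immune markers 0, 1 and 2, and 1, 0 and 0. Of the Egfl7 peaks, 1 lay on the gene, in WT replicate 3. Summed over the endothelial list, peaks covered 268 to 460 bp for each Mb covered genome wide in the WT libraries and 193 to 618 in the HOM libraries. For fibroblast markers these sums were 0 to 29.2 in the WT libraries and 0 to 6.98 in the HOM libraries, for smooth muscle and pericyte markers 166 to 269 and 0 to 133, and for immune markers 70.4 to 271 and 0 to 262. The part of such cells in the values below was not tested.

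By peak number, acetylation divided the genes sharply. Prdm16, Meis1 and Meis2 carried many peaks in all lists but the shortest, whereas the windows of Pbx2, Meis3 and Pbx3 carried few, and those of Pbx2 and Meis3 lay almost entirely outside the gene. A peak was present in the windows of 4, 5 and 5 of the 6 genes in the WT libraries, and of 5, 1 and 4 in the HOM libraries. Over all 21887 protein-coding windows the shares with a peak were 31.7%, 57.4% and 66.1% in the WT libraries and 47.1%, 3.14% and 25.2% in the HOM libraries. Meis1, Meis2, Pbx2 and Prdm16 had a peak in at least 5 libraries, as did 21% of all windows. Longer genes have longer windows, so the covered share of the window is given beside the counts.

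**Figure D1:**
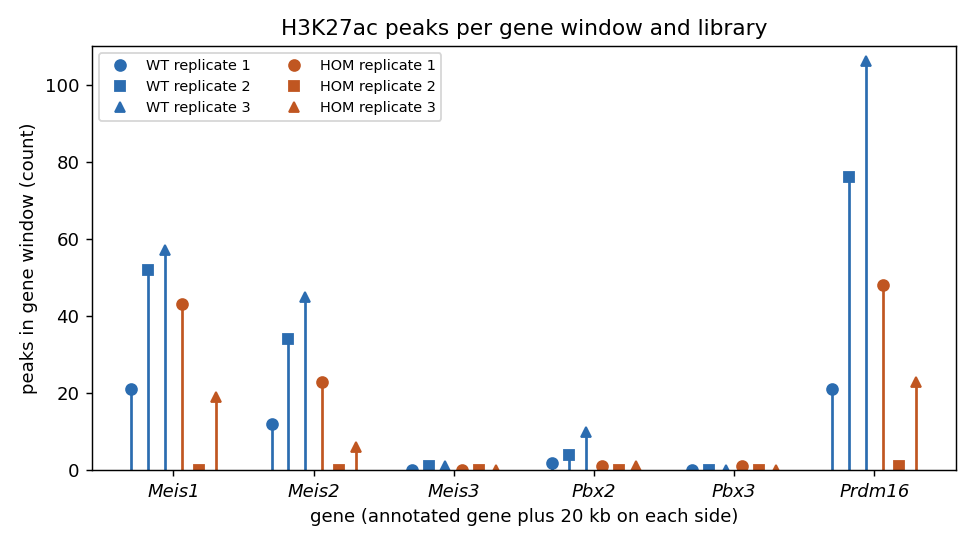
Number of H3K27ac peaks in the window of each gene (y axis, count) for each of the 6 libraries, with WT in blue, HOM in orange and the replicate number by symbol. Prdm16 ranges from 1 to 106 peaks, Meis1 from 0 to 57 and Meis2 from 0 to 45, while Meis3 and Pbx3 have at most 1.

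Meis1 (chr11:18880428-19019651, minus strand) had the densest acetylation of the 6 genes in each list except that of HOM replicate 2. Its window held 21, 52 and 57 peaks in the WT libraries, and 43, 0 and 19 in the HOM libraries. They covered 4.38%, 19.3% and 25.1% of the window in the WT libraries, and 11.3%, 0% and 3.72% in the HOM libraries. In the 5 libraries with peaks, between 97.8% and 98.7% of protein-coding windows had a lower covered share, although the share itself varied several-fold between libraries. The count followed list length in the same order as the whole lists within each genotype.

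The peaks of Meis1 lay in the 5′ and middle parts of the gene, the gene being divided here into 3 equal parts. The 5′ part of the gene held 72.7%, 56.1% and 54.7% of the covered bases in the WT libraries, and 60.7% and 61.8% in replicates 1 and 3 of HOM. The middle part held 27.3% to 38.5%, and the last part held 0% to 2.52% in these 5 libraries. Touching peaks of the 6 libraries merged into 64 regions, of which 7 were called in at least 4 libraries and 33 in only 1.

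The longest of the recurrent regions, chr11:19006209-19021280, spanned 15072 bp over the start of Meis1 and the lncRNA gene Gm16141, which lies inside Meis1. It was covered over 5201, 13424 and 14658 bp in the WT libraries and 8549, 0 and 4309 bp in the HOM libraries. Its strongest peak exceeded in fold, as the authors' peak caller gave it, 98.7%, 97.9% and 98.2% of the library's peaks in the WT libraries and 97.4% and 97.4% in replicates 1 and 3 of HOM. The same stretch was thus among the top few percent of peaks in each of the 5 libraries. Within Meis1, single peaks reached widths of 698, 5387 and 8372 bp in the WT libraries and 2197 and 816 bp in replicates 1 and 3 of HOM, wider than at least 96% of the peaks of their own list.

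A separate pair of recurrent regions lay in mid-gene, away from any annotated end. The region chr11:18944987-18949875, centred 72.2 kb into the gene, held the top Meis1 peak by fold in 4 of the 5 libraries, WT replicate 1 being the exception. Its strongest peak ranked 1819 of 21340, 436 of 72362 and 371 of 106605 in the WT libraries, and 313 of 48102 and 242 of 15184 in replicates 1 and 3 of HOM. It was covered over 1115, 4656 and 4880 bp in the WT libraries and 3593, 0 and 1135 bp in the HOM libraries. The neighbouring region chr11:18955941-18959828, 61.8 kb into the gene, was weaker, with 24.4% of peaks lower in WT replicate 1, 95% and 96.2% in WT replicates 2 and 3, and 92.1% and 82.9% in replicates 1 and 3 of HOM.

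**Figure D2:**
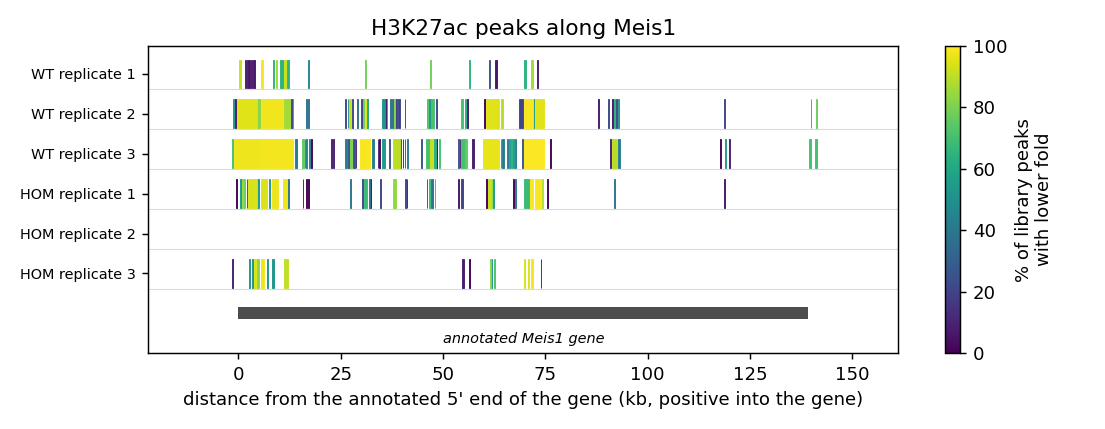
Peaks along Meis1 in each library (rows), by distance from the annotated 5′ end in kb, coloured by the percent of the library's peaks with lower fold; the grey bar is the gene. Blocks stand over the first 15 kb and again near 60 to 75 kb, and HOM replicate 2 is empty.

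Meis2 (chr2:115861264-116067537, minus strand) encodes the closest relative of MEIS1 and is required for the development of the cardiac outflow tract in mice. Its window held 12, 34 and 45 peaks in the WT libraries, and 23, 0 and 6 in the HOM libraries. They covered 1.35%, 7.5% and 11.1% of the window in the WT libraries, and 3.78%, 0% and 0.681% in the HOM libraries. The covered share of Meis2 was above that of 88.5% to 91.8% of protein-coding windows in the 5 libraries with peaks, and below that of Meis1 in each of them.

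Acetylation of Meis2 was confined more closely to the start than that of Meis1. The 5′ part held 100%, 94.3% and 85.1% of the covered bases in the WT libraries, and 96.1% and 100% in replicates 1 and 3 of HOM. Of 40 merged regions, 7 were called in at least 4 libraries, and all of these were centred within the first 27.4% of the gene, the farthest 56.5 kb from its start. Those called in 5 libraries were chr2:116061344-116064359, chr2:116051612-116055027 and chr2:116048771-116051547, centred 4.69, 14.2 and 17.4 kb into the gene.

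The strongest Meis2 peak exceeded 86.3%, 97.9% and 98.5% of the library's peaks in fold in the WT libraries, and 97.4% and 70.8% in replicates 1 and 3 of HOM. It lay at 10.3 kb in WT replicate 1, at 14.4 and 14.6 kb in WT replicates 2 and 3, and at 5.07 and 4.54 kb in replicates 1 and 3 of HOM. The leading peaks of WT replicates 2 and 3 overlapped each other, as did those of HOM replicates 1 and 3, and all lay within the first 15 kb. Of 8 regions called in each WT library, 2 were called in none of HOM, at chr2:116056836-116057613 and chr2:116048309-116048619. No Meis2 region was called in the HOM libraries alone. HOM replicate 2 had no Meis2 peak and the WT lists together held more peaks. These counts therefore cannot be told apart from list length, and the share of such regions over all windows was not computed.

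**Figure D3:**
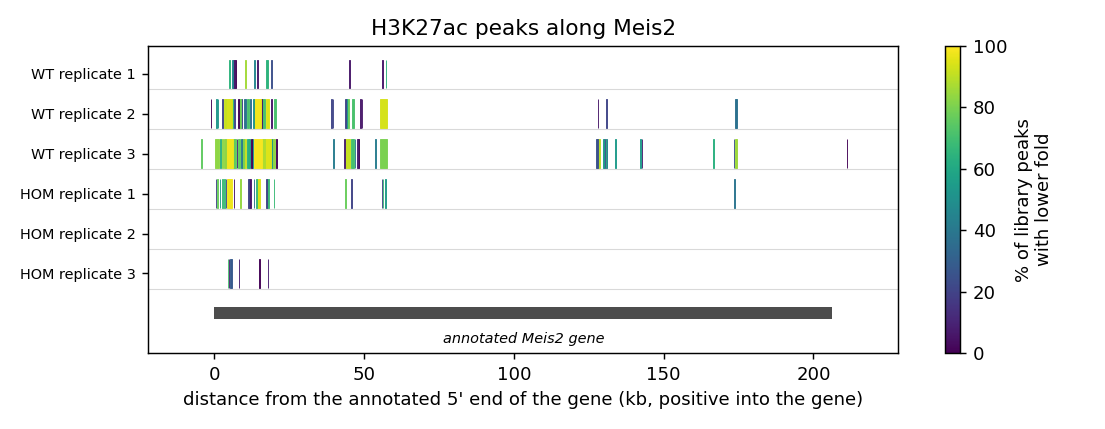
Peaks along Meis2 in each library, drawn as for Meis1 (x axis, distance from the annotated 5′ end in kb; colour, percent of the library's peaks with lower fold; grey bar, the gene). The regions called in 4 or more libraries lie within 56.5 kb of the start, and in the middle and last parts of the gene WT replicates 2 and 3 carry scattered peaks and HOM replicate 1 has 1.

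Prdm16 (chr4:154316122-154637360, minus strand) is the longest of the 6 genes and had the most peaks in each library, tied with Meis1 in WT replicate 1. Its window held 21, 76 and 106 peaks in the WT libraries, and 48, 1 and 23 in the HOM libraries. By peak number it ranked 126, 51 and 49 of 21887 windows in the WT libraries and 88, 114 and 57 in the HOM libraries. The rank of 114 in HOM replicate 2 rests on a single peak and was shared by all 575 windows with 1 peak there. They covered 2.06%, 9.98% and 15.3% of the window in the WT libraries, and 4.83%, 0.0161% and 1.77% in the HOM libraries. By covered share, 93.4% to 95.5% of windows were lower in the 5 longer lists, so Prdm16 stood higher by number than by density. It was the only one of the 6 genes with a peak in HOM replicate 2, a single peak of 58 bp at 278 kb into the gene with 19.2% of that library's peaks lower in fold. Prdm16 lies 6.31 Mb above Nppa on chromosome 4, the chromosome that carries the deletion.

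Unlike Meis2, Prdm16 carried peaks along its whole length. The 5′ part held 49.5%, 49% and 48.2% of covered bases in the WT libraries and 52.6% and 41.1% in replicates 1 and 3 of HOM. The middle part held 11.1%, 29% and 29.5% in the WT libraries and 24.1% and 27.1% in those HOM libraries. The last part held 25.4%, 15.4% and 16.5% in the WT libraries and 17.7% and 18.6% in the HOM libraries. Merging gave 108 regions, of which 16 were called in at least 4 libraries and 9 in 5.

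Of the 9 Prdm16 regions called in 5 libraries, 4 were centred between -11.8 and 13.5 kb from the start, 3 between 94.8 and 115 kb and 2 at 304 and 307 kb. The 7 called in 4 libraries were spread from 1.2 to 279 kb. The region with the largest covered length over the libraries was chr4:154632562-154635555, 3.3 kb into the gene and overlapping the lncRNA gene 5930403L14Rik. It was covered over 1413, 2181 and 2932 bp in the WT libraries and 2386, 0 and 1169 bp in the HOM libraries, and its strongest peak exceeded 91.5%, 96.2% and 99.4% of peaks in the WT libraries and 99.4% and 70.8% in replicates 1 and 3 of HOM. Just before the start, chr4:154637809-154639872 overlapped the lncRNA gene Prdm16os, and these data do not tell to which of the neighbouring genes that acetylation belongs.

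Far from the start, chr4:154328842-154331672 lay 307 kb into the gene, near its 3′ end. It was covered over 1208, 2285 and 2831 bp in the WT libraries and 1367, 0 and 973 bp in the HOM libraries, and held the strongest Prdm16 peak of HOM replicate 3. Its strongest peak exceeded 78.2%, 96.2% and 98.2% of peaks in the WT libraries and 88.7% and 82.9% in replicates 1 and 3 of HOM. Between them, chr4:154541541-154543535, 94.8 kb from the start, was covered over 742, 1964 and 1989 bp in the WT libraries and 1370, 0 and 448 bp in the HOM libraries. All 3 of these regions were thus found in 5 libraries, with WT replicate 1 and HOM replicate 3 the least covered.

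**Figure D4:**
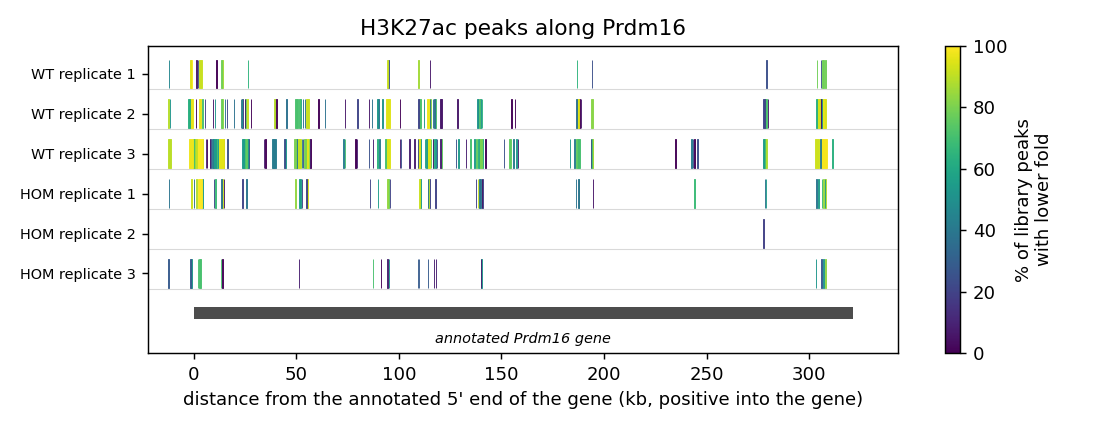
Peaks along Prdm16 in each library, drawn as for Meis1 (x axis, distance from the annotated 5′ end in kb; colour, percent of the library's peaks with lower fold; grey bar, the gene). Peaks shared by the 5 longer lists stand around the start, at 94.8 kb and at 307 kb, and HOM replicate 2 has 1 peak.

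Pbx2 (chr17:34592259-34597400, plus strand) encodes a widely expressed PBX partner of MEIS proteins. Its window held 2, 4 and 10 peaks in the WT libraries and 1, 0 and 1 in the HOM libraries, but on the gene itself there were 0, 1 and 1 in the WT libraries and 0 in each HOM library. By covered share the window did not stand low. Peaks covered 2.8%, 4.36% and 9.03% of it in the WT libraries and 3.27%, 0% and 2.03% in the HOM libraries. In the 5 libraries with peaks, 85.3% to 96.3% of windows were lower. In WT replicate 1 and HOM replicate 3 the share was above those of Meis2 and Prdm16. The gene is short and its window is shared with 7 other protein-coding genes. The 1 region called in 5 libraries, chr17:34603771-34605818, overlapped Agpat1, an acyltransferase gene of phosphatidic acid synthesis, and not Pbx2. Its peak exceeded 78.2%, 97.1% and 99.8% of the library's peaks in the WT libraries and 94.5% and 96.4% in replicates 1 and 3 of HOM. The values given for the window of Pbx2 therefore describe its neighbour for the most part.

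Meis3 and Pbx3 were almost bare. Meis3 (chr7:16174012-16186510, plus strand), known for a role in pancreatic beta cells in mice, had 0, 1 and 1 peaks in its window in the WT libraries and 0 in each HOM library, and none lay on the gene. These peaks, 250 and 261 bp wide, were centred at -18.1 and -17.4 kb from the gene's start, within Slc8a2, a sodium-calcium exchanger gene. Pbx3 (chr2:34171457-34372045), which is required for normal breathing in newborn mice, had no peak in any WT library. Its 1 peak was in HOM replicate 1, 166 bp wide, with 5.75% of that library's peaks lower in fold. That width was the smallest in the list. The strand and promoter of Pbx3 were not used here. The window of Pbx3, 240589 bp, was about as long as that of Meis2, 246274 bp.

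Peaks with gaps of up to 10 kb were joined, and the resulting domains were ranked by the bases covered. This placed Meis1 among the leading domains of each library with a peak. Its best domain ranked 119 of 7632, 48 of 16690 and 113 of 20864 in the WT libraries, and 205 of 12399 and 98 of 5981 in replicates 1 and 3 of HOM. That is the top 1.56%, 0.288% and 0.542% in the WT libraries and 1.65% and 1.64% in the HOM libraries. In WT replicates 2 and 3 the domain ran from the start past 74 kb in 1 piece of 32203 and 41357 covered bp. In the shorter lists it was broken. The leading piece ran from 0.11 to 17.2 kb in WT replicate 1 and from -1.63 to 12.2 kb in HOM replicate 3. In HOM replicate 1 it was the mid-gene piece. The piece of HOM replicate 3 was joined across a gap at the start, and the peak nearest the listed start lay 1.95 kb from it. Prdm16 ranked 270, 199 and 320 in the WT libraries and 503 and 360 in replicates 1 and 3 of HOM, and Meis2 406, 370 and 558 in the WT libraries and 332 and 556 in the HOM libraries. The number of domains differed between libraries, so these ranks are not set against each other by genotype.

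Most HOM peaks at Meis1, Meis2 and Prdm16 overlapped a WT peak. The share over the whole lists was not computed, so whether these counts are unusual cannot be told. Of the HOM peaks at Meis1, 40 of 43 in replicate 1 and 19 of 19 in replicate 3 overlapped a WT peak. The counts were 23 of 23 and 6 of 6 at Meis2, and 47 of 48, 1 of 1 and 22 of 23 in the HOM libraries at Prdm16. In the other direction, 20 of 21, 25 of 52 and 21 of 57 WT peaks at Meis1 overlapped a HOM peak. At Prdm16 these were 16 of 21, 33 of 76 and 39 of 106, and at Meis2 6 of 12, 17 of 34 and 19 of 45. The WT lists together held more peaks than the HOM lists, so a WT peak without a HOM partner cannot be told apart from list length. Regions called in all 3 WT libraries numbered 6 at Meis1, 8 at Meis2 and 15 at Prdm16. Of these, 0, 2 and 2 were called in no HOM library. The share of such regions over all windows was not computed.

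To compare the genotypes, the covered length of each window was divided by the covered length of the library and expressed in bp per Mb, and a log2 scale with 10 bp per Mb added was used for tests. At Meis1 it was 1173, 1095 and 807 bp per Mb in the WT libraries, and 1174, 0 and 1467 in the HOM libraries. Apart from HOM replicate 2, HOM values were at or above those of WT. Among these 5 libraries the value at Meis1 and Prdm16 was highest in the shortest list (HOM replicate 3) and lowest in the longest (WT replicate 3). At Meis2 it was instead lowest in the shortest list. The part of list length in these values was not tested. At Meis2 the value was 498, 584 and 493 bp per Mb in the WT libraries and 542, 0 and 369 in the HOM libraries, with HOM replicate 1 inside the WT range and replicate 3 below it. At Prdm16 it was 1111, 1141 and 995 bp per Mb in the WT libraries and 1014, 196 and 1409 in the HOM libraries, with HOM replicate 3 above the WT range. At Pbx2 it was 189, 62.3 and 73.2 bp per Mb in the WT libraries and 85.9, 0 and 202 in the HOM libraries. The groups overlapped at each of these 4 genes, and the same held for Meis3 and Pbx3, whose values were at 0 in most libraries.

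With all 6 libraries, no member's values were separated between genotypes. On the log2 scale Meis1 was 9.998 ± 0.28 in the WT libraries and 8.02 ± 4.07 for HOM (SD, n = 3 per genotype), or -1.98 (HOM minus WT; two-sided exact permutation p = 1). For Meis2 it was 9.06 ± 0.14 and 6.999 ± 3.20 (SD, n = 3 per genotype), or -2.06 (exact permutation p = 0.3). For Prdm16 it was 10.09 ± 0.10 and 9.39 ± 1.49 (SD, n = 3 per genotype), or -0.70 (exact permutation p = 0.8). The Prdm16 difference was -2.25 with the stronger 50% of each list by score and -3.19 with a −log10 q of at least 5 (exact permutation p = 0.7 and 0.2), and that of Meis1 was -3.08 and -0.93 with constants of 1 and 100 bp per Mb. HOM replicate 2 had the lowest value of all libraries at each of these 3 genes, and no difference exceeded the SD of HOM.

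The windows of Pbx2, Meis3 and Pbx3 differed by -0.85, -0.47 and 0.32, with exact permutation p of 0.9, 0.4 and 1. Adjusted by the Benjamini-Hochberg method over 14818 windows with a peak in some library, the p was 0.803 for Meis2 and Meis3 and 1 for the other genes. The smallest p the 20 assignments allow is 0.1, so no window could pass 0.05. Over all tested windows 9.27% lay lower in HOM with groups that did not overlap and 0.256% higher, and 0 of the 6 genes were in either set. The median difference over all tested windows was -0.81, so Prdm16 lay 0.11 above it and Meis1 and Meis2 lay at -1.16 and -1.25 from it. Without HOM replicate 2 that median was -0.33, and 9.61% of 14813 windows lay lower and 4.48% higher. Meis1 was the only member among these, on the higher side. Its HOM values of 10.2093 and 10.5283 stood beside a highest WT value of 10.2083.

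Without HOM replicate 2 the difference was 0.37 at Meis1 (exact permutation p = 0.2), -0.22 at Meis2 (0.4), 0.14 at Prdm16 (0.5), 0.43 at Pbx2 (0.5), -0.47 at Meis3 (0.4) and 0.49 at Pbx3 (0.4). With the other 5 lists also limited to their 15184 strongest peaks by fold, Meis1 had 14, 13 and 8 peaks in the WT libraries and 16 and 19 in replicates 1 and 3 of HOM. Prdm16 had 18, 15 and 16 in the WT libraries and 17 and 23 in the HOM libraries, and Meis2 had 7, 7 and 8 in the WT libraries and 11 and 6 in the HOM libraries. At equal list length these genes thus held similar numbers of peaks in both genotypes, with the 2 HOM counts at Meis1 above the 3 WT counts. The lists were equal in number only. They covered 5.27, 14.2 and 24.2 Mb in the WT libraries and 8.53 and 4.54 Mb in replicates 1 and 3 of HOM. At Meis1 the 8 peaks of WT replicate 3 covered 29234 bp and the 19 of HOM replicate 3 covered 6662 bp. A higher count here is therefore not a larger acetylated length. The relative differences were then 0.27, 0.11 and 0.08 at Meis1, Prdm16 and Meis2, with exact permutation p of 0.3, 0.6 and 0.9. Between WT replicate 1 and HOM replicate 1, the libraries with Y chromosome peaks, the differences were 0.0010 at Meis1, 0.12 at Meis2 and -0.13 at Prdm16. Among the other libraries without HOM replicate 2 they were 0.64, -0.53 and 0.40.

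**Figure D5:**
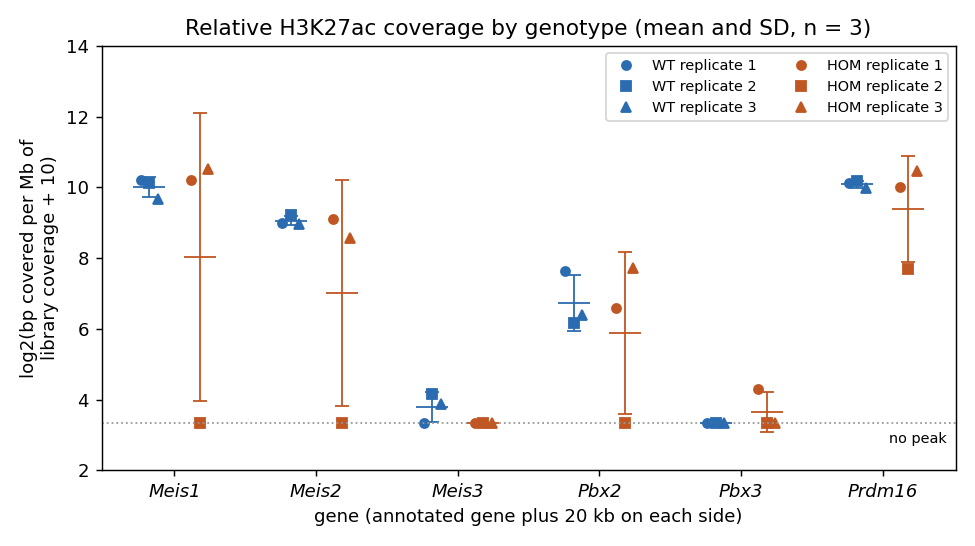
Covered length of each gene window relative to the library's total, as log2(bp per Mb + 10), for WT (blue) and HOM (orange); symbols are libraries, and bars give the mean and SD of 3. At Meis1, Meis2 and Prdm16 the WT libraries and HOM replicates 1 and 3 lie between 8.57 and 10.53, and HOM replicate 2 is at or toward the dotted line of a window without peaks.

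Relatives and partners of the 6 genes showed the same unevenness. Pknox2, a TALE gene related to the MEIS group, had 12, 17 and 28 peaks in the WT libraries and 9, 0 and 7 in the HOM libraries, and Mkx, Tgif1 and Pbx4 had none. Of 7 other TALE genes, 3, 4 and 4 had a peak in the WT libraries and 4, 2 and 3 in the HOM libraries. The median difference over those with a peak was -0.35, beside -0.81 over all tested windows. Without overlap 0 were lower and 0 higher, beside 9.27% and 0.256% of all tested windows. The value without HOM replicate 2 was not computed for this list. Of 14 other PRDM genes, 3, 6 and 7 had a peak in the WT libraries and 7, 0 and 1 in the HOM libraries, with a median difference between genotypes of -1.30 over the 7 with a peak (-0.67 without HOM replicate 2), beside -0.81 (-0.33) over all tested windows. Of these 7, 1 was lower in HOM without overlap and 0 higher, beside 9.27% and 0.256% of all tested windows. Prdm11 led them with 9, 16 and 21 peaks in the WT libraries and 14, 0 and 7 in the HOM libraries, and Prdm10 had 1, 9 and 9 in the WT libraries and 4, 0 and 0 in the HOM libraries. No peak was found at Prdm1, Prdm12 or Prdm13.

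Among 7 genes of PRDM16 partner proteins, 5, 6 and 6 had a peak in the WT libraries and 6, 1 and 4 in the HOM libraries, with a median difference of -1.38 over 6 tested (-0.56 without HOM replicate 2) and 1 window lower and 1 higher, to be read against the same all-window values. Ctbp2, which encodes a corepressor that binds PRDM16, had 3, 23 and 39 peaks in the WT libraries and 14, 0 and 1 in the HOM libraries. Tbx5, a cardiac T-box factor, had 7, 13 and 18 in the WT libraries and 13, 2 and 7 in the HOM libraries, and Hand1 had none. Of 7 MEIS partners and cell cycle genes, 2, 3 and 3 had a peak in the WT libraries and 3, 0 and 2 in the HOM libraries, with a median difference of -1.37 over 3 tested (-0.82 without HOM replicate 2) and 1 window lower and 0 higher, few windows beside the same background. Cdkn1a, the p21 cell cycle inhibitor, had 3, 6 and 7 peaks in the WT libraries and 1, 0 and 1 in the HOM libraries, and Cdkn1b had 4, 7 and 6 in the WT libraries and 4, 0 and 2 in the HOM libraries. The inhibitors Cdkn2a and Cdkn2b and the HOX genes Hoxa9 and Hoxb13 had none.

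The windows most like each member in peak number over the 6 libraries, among windows of a length within 1.2 times, were those of Mical2 and Lpin1 for Meis1, with summed absolute differences of 13 and 18 peaks (2 windows shared the value 18). For Meis2 they were Rftn1 and Itsn1, at 7 and 10 peaks. For Prdm16, Cacnb2, a calcium channel subunit gene, was among the most alike and differed by 31 peaks, with 23, 67 and 105 in the WT libraries and 57, 0 and 14 in the HOM libraries. For Pbx2 they were Tufm and A430057M04Rik, at 1 and 2 peaks (the latter value shared by 11 windows), and for Pbx3 Fbxl13, at 0. For Meis3, 153 windows had the same 6 counts, so no single one is named.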

How the data were processed

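H3K27ac CUT&RUN was measured by the submitters in 3 WT and 3 HOM libraries, grouped and numbered from the sample titles. Per the submitters' processing notes, the build was mm10 and the tools were BWA and MACS2, whose versions are not given in the sources used here. Deposited lists, 1 per library and in the narrow peak layout, carry a score and a fold enrichment per peak, and also p-values and q-values as −log10. All are the authors' own values, used here within each list only. Read counts are not among them: the depth is unknown, and no counting interval is given.

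Genes, promoters and strands came from RefSeq for GRCm38.p6, the assembly mm10 names, and 6 of 6 symbols matched; 5 had a promoter in the table. Positions are 1-based. A peak counted when any base lay in the window, and covered bases were counted inside it after uniting the peaks of a library. Ranks by fold count the peaks with higher fold, so ties share a rank. Tests were two-sided exact permutation tests over all assignments of libraries, run on every protein-coding window with a peak in at least 1 library. Coverage, peak counts and the test were checked on simulated data. The members and lists were chosen with earlier results of these data known. Named genes were the members, the genes with a peak in most and fewest libraries in each list (up to 3 each), and the 2 most alike windows; some that the rule names are not reported here. Alternatives were other constants (1 and 100 bp per Mb), flanks (none and 50 kb), peak filters (the stronger 50% by score, a −log10 q of at least 5, equal list lengths), peak midpoints, filters on windows, ranks by −log10 p, each library left out and the replicate block; the grouping by Y chromosome peaks and the medians without HOM replicate 2 were added after seeing the data. Python 3.11.15, numpy 2.4.6, pandas 2.3.3 and matplotlib 3.10.9 were used.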

Additional observations from a re-analysis of the deposited data

How the results depend on the processing

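All differences are HOM minus WT on the log2 scale of relative covered length, and no test run here could reach 0.05. Of 102 alternative values for the 6 genes, 88 kept their direction and 14 turned. The 88 include values that could not turn or did not move. The replicate block has the main differences by construction, and peak midpoints left all of them unchanged. At Meis3 with flanks of 20 kb each HOM library was at 0, so no HOM value could exceed WT. The smallest exact permutation p among the 102 values was 0.1 and the smallest adjusted p 0.461. HOM replicate 2, with 1462 peaks, decided the direction at Meis1, Pbx2 and Prdm16, which turned without it (0.37, 0.43 and 0.14), and at equal list length of 15184 so did Meis1 (0.27), Meis2 (0.0826), Pbx2 (0.52) and Prdm16 (0.11). Leaving out each library in turn gave ranges of -3.23 to 0.37 at Meis1, -3.12 to -0.22 at Meis2, -0.70 to -0.28 at Meis3, -1.78 to 0.43 at Pbx2, 0.32 to 0.49 at Pbx3 and -1.25 to 0.14 at Prdm16. Between the libraries with Y chromosome peaks Meis1 and Meis2 turned (0.0010 and 0.12), and among the others without HOM replicate 2 Meis1, Pbx2 and Prdm16 did (0.64, 1.45 and 0.40). With flanks of 50 kb Pbx3 turned (-0.25), and with all lists limited to 1462 peaks Pbx2 did (0.45). No value was left for Meis3 without flanks and between the libraries with Y chromosome peaks, for Meis3 and Pbx3 with both limits on list length and with a −log10 q of at least 5, or for Pbx3 with the stronger 50%, without HOM replicate 1 and among the libraries without Y chromosome peaks. For the top peak of each gene, ranks by −log10 p gave the same percentiles as ranks by fold in each library with a peak. Both measures placed these peaks identically, so this is no independent check. Constants of 1 and 100 bp per Mb gave -3.16 and -1.004 at Meis2, -1.89 and -0.06 at Meis3, -1.89 and -0.18 at Pbx2 and 1.14 and 0.04 at Pbx3. The cause of the other changes was not tested.

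Windows with groups that did not overlap numbered 1374 lower and 38 higher. They were 773 and 25 without flanks, 578 and 19 with a −log10 q of at least 5, 97 and 13 with lists limited to the shortest, and 771 and 616 at equal length without HOM replicate 2. With the stronger 50% 15 were higher. Leaving out 1 library gave 1424 to 5611 lower (5611 without WT replicate 1, 3331 without HOM replicate 1) and 47 to 664 higher (664 without HOM replicate 2, 189 without HOM replicate 1, 175 without WT replicate 1, 84 without HOM replicate 3); fewer libraries make this pattern easier to meet. Mean peak numbers without flanks were 0 (WT) at Meis3 and 0.667 (WT) and 0 (HOM) at Pbx2, and with 50 kb they were 4 (WT) and 1.33 (HOM) at Meis3 and 1 (WT) at Pbx3. Deviations of same-numbered libraries from their genotype mean correlated at -0.0594, -0.0535 and -0.249 across windows. Those of differently numbered libraries correlated at -0.095 to 0.197. These values cannot show whether the replicate numbers pair the samples, because each genotype was centred on its own mean and list lengths differed widely. With the replicate block, 2336 windows were lower and 78 higher in all 3 pairs, and the differences of the members equal the main ones (-1.98 at Meis1), with exact sign-flip p from 0.5 to 1.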
